A study of Mus musculus with 10 samples.

Results

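The mitochondrial ribosomal proteins are the protein part of the ribosome inside mitochondria, and their genes were taken as every row of the deposited count table whose symbol begins with Mrpl (large subunit) or Mrps (small subunit) followed by a digit and is not a pseudogene name. By this rule 77 of the 40789 listed genes were members, 48 of them Mrpl and 29 Mrps, spread over 17 chromosomes. RNA was measured by sequencing in microglia, the macrophages that reside in the brain, of female C57BL6/J mice aged 2 to 3 months. Every mouse of both groups had the genotype CX3CR1+/egfp, in which 1 copy of the fractalkine receptor gene is replaced by a green fluorescent reporter. The LPS group (n = 5) received 4 mg/kg lipopolysaccharide, a component of bacterial outer membranes that triggers innate immune signalling, into the peritoneum, and the control group (n = 5) received saline. Cortical cells with high reporter fluorescence were sorted 24 hours later, with 1 mouse behind each library. The reporter is also active in other cells of the monocyte and macrophage lineage, and all 10 mice lacked 1 functional Cx3cr1 copy.

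Mitochondrial ribosomes translate the few messenger RNAs encoded by mitochondrial DNA, which specify core subunits of the oxidative phosphorylation complexes. Their ribosomal RNA comes from mitochondrial DNA, whereas all their proteins are encoded in the nucleus, made in the cytosol and imported. The small subunit binds and decodes the messenger RNA, and the large subunit joins the amino acids and passes the new chain to the inner membrane. Macrophages and microglia exposed to LPS are known to alter their mitochondrial metabolism.

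Most mitochondrial ribosomal protein genes had higher RNA levels in microglia of LPS-treated mice, and none was called lower. A gene was called when its Benjamini-Hochberg adjusted p from edgeR's quasi-likelihood test over all 13793 tested genes was under 0.05. Of the 76 members that passed the filter on low counts, 64 rose and 12 were not called, where 22.4% of all tested genes were called higher and 22.5% lower. The median log2 fold change of LPS over saline was 0.75 over the tested members and 0.00 over all tested genes. For 44 members every LPS mouse was above every saline mouse, against a background of 14.1% of all tested genes. In sorted bulk RNA, less RNA per cell and fewer cells of a type cannot be told apart, and p-values rest on the spread between single mice.

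**Figure D1:**
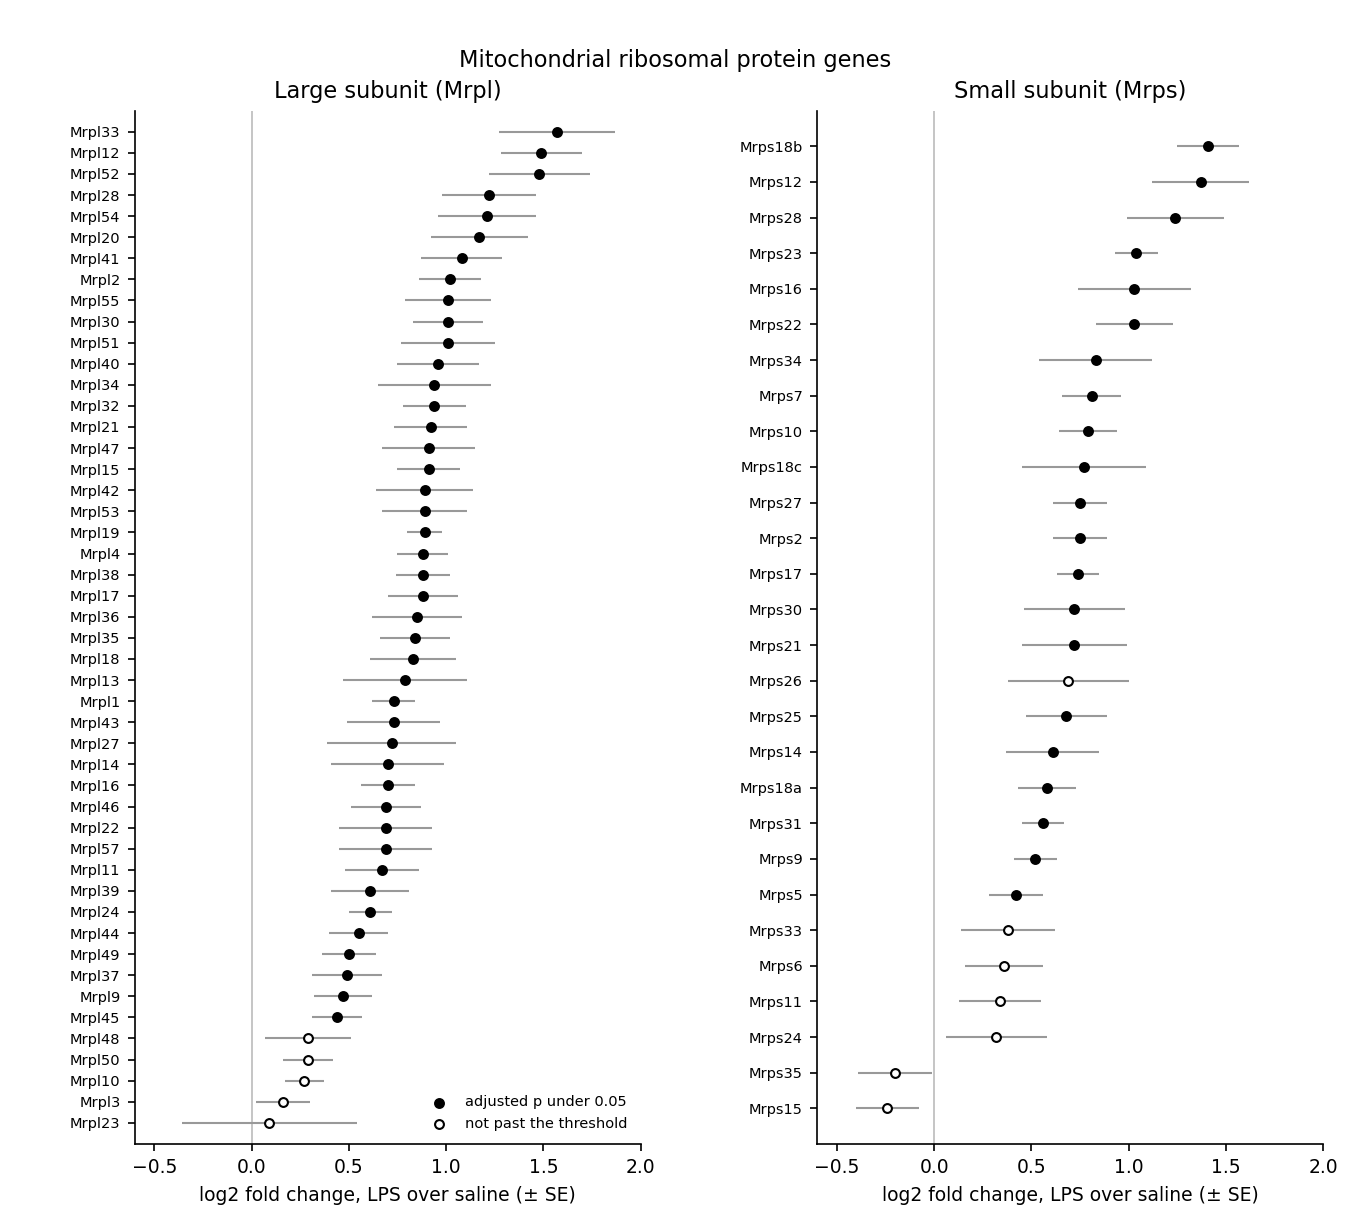
Log2 fold change of LPS over saline for the 76 tested members, large subunit on the left and small subunit on the right, with bars of ± 1 standard error over 5 and 5 mice. Filled points are the 64 members called higher, and open points are the 12 not called, of which Mrps35 and Mrps15 lie below 0.

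The rise was visible in the summed level of the family. In CPM (counts scaled to a common library size, with TMM correction), the 77 members together reached 2643, 2059, 2465, 1937 and 2694 in saline replicates 1 to 5. They reached 4024, 3506, 4329, 3196 and 5071 in LPS replicates 1 to 5. No LPS library fell into the saline range, and the mean went from 2359 ± 344 to 4025 ± 732 CPM (SD, n = 5 each), a ratio of 1.71. LPS replicate 5 gave the highest LPS value for 57 of the 77 members, and LPS replicate 4 gave the lowest for 39. In the saline group, replicate 4 was lowest for 38 members and replicate 2 for 29. Without LPS replicate 5, or without saline replicate 2, 51 members were called higher, and without any other single mouse between 54 and 65.

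Total counts ranged from 11577295 to 15274421 in saline and from 12928007 to 15332121 in LPS libraries. The mouse numbers in the sample titles fall into 3 ranges, a low one with 2 mice of each group, a middle one with 2 saline mice and 1 LPS mouse, and a high one with 1 and 2. The summed level was 1.60 times higher in LPS in the low, 1.97 times in the middle and 1.53 times in the high range. Microglial markers were present in every library, and 5 of the 7 fell, with a summed level of 50740 to 57860 CPM in saline and 15200 to 27010 CPM in LPS. The 6 monocyte markers summed to 13.1 to 18.1 CPM in saline and 74.2 to 200.5 CPM in LPS, and 2 of the 4 tested ones rose while 2 fell, with Ly6c2 and Vcan below 1 CPM. The 6 border macrophage markers summed to 9.82 to 14.8 and 14.5 to 43.9 CPM, with Cd163, Lyve1 and Pf4 below 1 CPM. The 6 neutrophil markers summed to 0 to 0.132 and 0.167 to 14.2 CPM, with Mpo at 0 throughout. The 5 endothelial markers summed to 49.2 to 72.7 and 4.76 to 10.8 CPM, nearly all from Pecam1 (mean 54.0 and 7.04 CPM). Cldn5 was at 0, and Flt1, Cdh5 and Ly6c1 were below 1 CPM. The 5 astrocyte markers summed to 358 to 414 and 137 to 345 CPM, nearly all from Slc1a3 (mean 380.2 and 210.1 CPM). Of the 4 tested astrocyte markers 1 fell and 0 rose, and mean Gfap, not called, went from 0.738 to 2.12 CPM. The part of these other cells in the members' values was not tested.

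Over all genes, the size of the change moved with the length of the gene. The members were short: the median length implied by the deposited counts and RPKM (counts scaled by gene length and library size) was 1357 bases for members and 3061 for all genes. All genes with a length were ranked by it and cut into 5 equal bins. In the shortest bin, up to 1537 bases, 44.6% of genes were called higher with a median log2 fold change of 0.71. In the longest bin 6.88% were called higher with a median of -0.45. The 46 members in the shortest bin had 37 higher calls and a median of 0.83. The 12 members in the 3 bins of longest genes were all called higher, with medians of 0.62, 0.79 and 0.88 where all genes of those bins had -0.02, -0.27 and -0.45. The shortest bin took 12.02% to 17.1% of counts in saline and 19.6% to 28.3% in LPS libraries, and LPS replicate 5 was the highest.

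With each library's length trend removed, 34 members were called higher and 2 lower, against a background of 20.5% higher and 18.7% lower. The members' median log2 fold change was then 0.31. With the principal transcript of GENCODE M21 as the length, 41 were called higher and 1 lower, where 22.3% of genes were called higher, and the median was 0.41. Mrps10, Mrps31 and Mrps9 were in the bins of longest genes by implied length. Their principal transcripts had 1018, 1515 and 1418 bases, and with that length they were not called. Both removals shared 31 of the 64 original calls, among them Mrpl33, Mrpl12, Mrpl52, Mrps18b, Mrps12, Mrps28 and Mrps23. The origin of the trend was not tested.

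**Figure D2:**
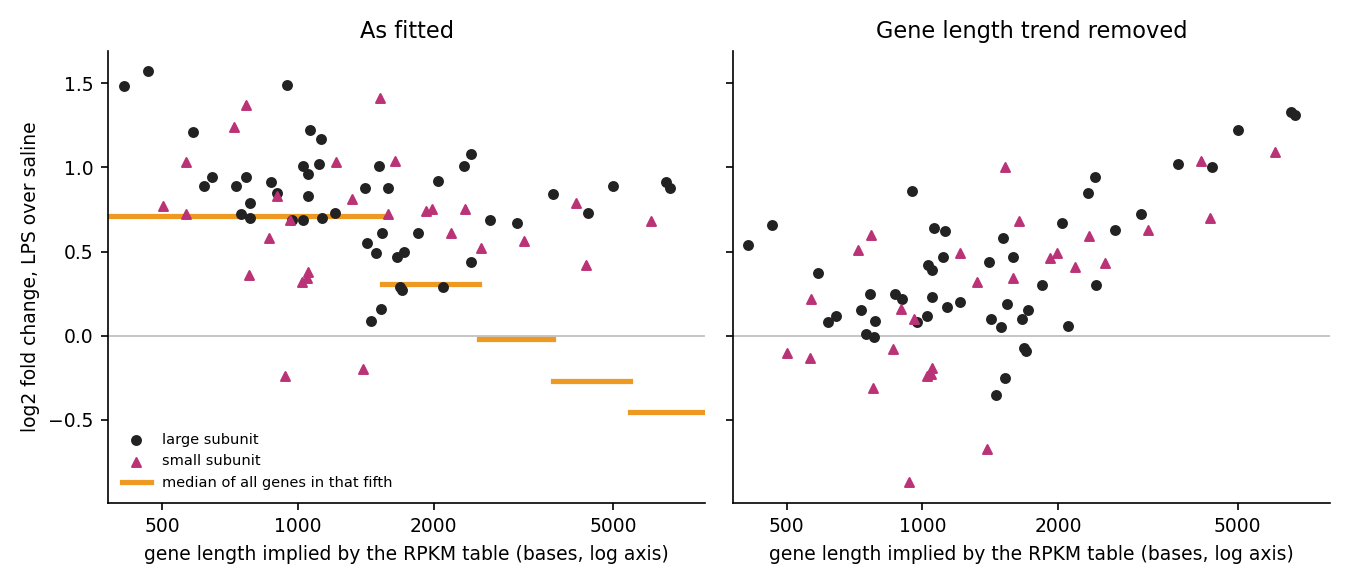
Log2 fold change of LPS over saline for each tested member against gene length in bases on a log axis, as fitted on the left and with the length trend of each library removed on the right. Orange lines mark the median of all genes in each of the 5 length bins, which runs from 0.71 to -0.45, and the members in the bins of longer genes lie well above it.

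The largest rises were found in both subunits. Mrpl33 (chr5:31613951-31622644, GRCm38.p6), a small large-subunit protein with a bacterial counterpart, measured 33.2, 19.6, 22.6, 15.2 and 27.7 CPM in the saline mice and 71.2, 48.3, 81.4, 44.6 and 105.6 CPM in the LPS mice. All LPS values were above all saline values, with a log2 fold change of 1.57 ± 0.30 (SE, n = 5 and 5; edgeR adjusted p = 0.000226). Mrpl12 (chr11:120484637-120488754), a protein of the flexible stalk that recruits translation factors, measured 13.9, 12.5, 16.5, 13.8 and 19.3 CPM in saline and 39.8, 42.3, 51.6, 26.6 and 54.1 CPM in LPS. Its groups did not overlap either, and the mean rose 2.82-fold (log2 1.49 ± 0.21, edgeR adjusted p = 4.3e-05). Mrpl52 (chr14:54426909-54429750), which has no bacterial counterpart, measured 19.7, 15.7, 13.9, 10.8 and 17.9 CPM in saline and 40.3, 36.4, 50.8, 27.1 and 62.7 CPM in LPS. This was a log2 fold change of 1.48 ± 0.26 (edgeR adjusted p = 0.000139) with no overlap between groups, LPS replicate 4 being the lowest treated mouse for all of Mrpl33, Mrpl12 and Mrpl52.

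Among small-subunit genes Mrps18b, Mrps12 and Mrps28 rose most. Mrps12 (chr7:28739641-28741821) encodes the counterpart of the bacterial protein at the decoding centre. Its level was 6.77, 7.71, 5.97, 8.03 and 8.46 CPM in saline and 13.4, 16.7, 20.4, 13.5 and 32.0 CPM in LPS. The groups did not overlap, although LPS replicate 5 stood well above the other 4, and the log2 fold change was 1.37 ± 0.25 (edgeR adjusted p = 0.000468). Mrps28 (chr3:8802146-8923857) measured 27.1, 14.7, 19.4, 13.7 and 20.8 CPM in saline and 47.3, 38.7, 52.0, 29.3 and 58.3 CPM in LPS. It rose by 1.24 ± 0.25 on the log2 scale (edgeR adjusted p = 0.000438). Mrps23 (chr11:88194106-88211507), a protein found only in mitochondrial ribosomes, had one of the 3 smallest adjusted p-values among members, and its mice lay close together. Its level was 23.7, 22.8, 27.0, 18.4 and 25.0 CPM in saline and 41.9, 46.7, 54.6, 46.8 and 50.6 CPM in LPS, a 2.06-fold rise (log2 1.04 ± 0.11, edgeR adjusted p = 4.5e-05).

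**Figure D3:**
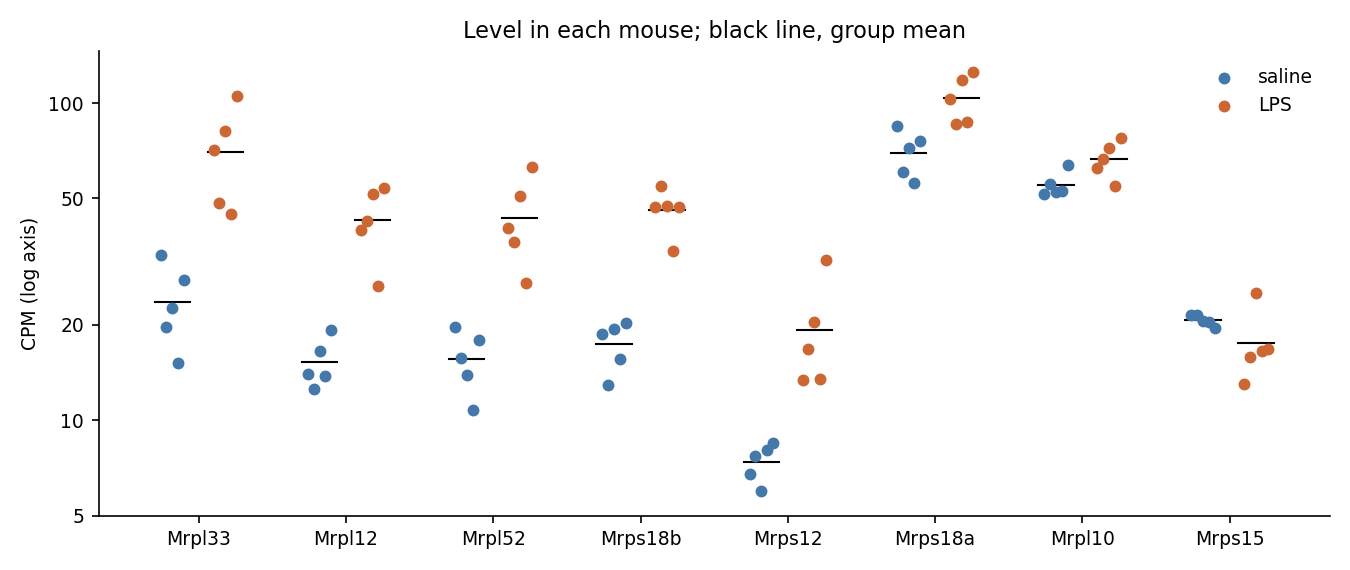
Level of 8 members in each mouse, in CPM on a log axis, with saline in blue, LPS in orange and the group mean as a black line. Mrpl33, Mrpl12, Mrpl52, Mrps18b, Mrps12 and Mrps18a show separate groups, and in Mrpl10 and Mrps15 the groups overlap.

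Promoter sequence was examined because the members moved together. RefSeq windows of GRCm38.p6, from 250 bases before to 50 after the start, were given for 68 of the 77 members. They were searched on both strands for the letters GCGCA, any base and GCGC (bound by NRF1, a regulator of nuclear genes for mitochondria), CCGGAAG (bound by ETS factors such as GABP), AAGATGG (bound by YY1) and CACGTG (the E-box bound by MYC and related factors). The 5 stretches printed here are the 150 bases before the start. They were taken from the stretches that hold a match and overlap no other gene, and further such stretches are not printed. Printed are those of Mrpl12, Mrpl52, Mrpl32 and Mrps22, which rose, and that of Mrpl3, which was not called. They are written 5′ to 3′ on the strand of the gene, with the matches in capitals.
Mrpl12: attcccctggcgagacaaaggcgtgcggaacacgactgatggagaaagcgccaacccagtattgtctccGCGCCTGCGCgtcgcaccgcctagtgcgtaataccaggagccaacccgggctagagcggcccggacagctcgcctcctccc
Mrpl32: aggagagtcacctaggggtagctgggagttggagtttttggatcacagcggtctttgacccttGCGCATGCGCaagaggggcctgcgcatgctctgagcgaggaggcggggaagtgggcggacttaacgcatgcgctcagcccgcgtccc
Mrpl52: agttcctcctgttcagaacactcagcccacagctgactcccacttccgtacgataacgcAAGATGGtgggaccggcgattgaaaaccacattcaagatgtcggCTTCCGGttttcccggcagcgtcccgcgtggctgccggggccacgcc
Mrps22: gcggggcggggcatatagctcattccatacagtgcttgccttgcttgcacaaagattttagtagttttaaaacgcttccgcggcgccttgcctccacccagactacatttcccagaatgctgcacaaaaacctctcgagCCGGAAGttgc
Mrpl3: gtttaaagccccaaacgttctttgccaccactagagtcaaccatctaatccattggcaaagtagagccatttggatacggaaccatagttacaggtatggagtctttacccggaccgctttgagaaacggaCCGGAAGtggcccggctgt
The stretches lie at chr11:120484487-120484636 (plus strand) for Mrpl12, chr13:14613038-14613187 (minus) for Mrpl32 and chr14:54426759-54426908 (plus) for Mrpl52. Those of Mrps22 and Mrpl3 lie at chr9:98601680-98601829 (minus) and chr9:105053118-105053267 (plus). Mrpl12 and Mrpl32 hold the NRF1 letters, beginning 81 and 87 bases before the start, and in Mrpl12 they are read on the opposite strand. Mrpl52, Mrps22 and Mrpl3 hold the ETS letters, 47, 11 and 19 bases before the start, in Mrpl52 on the opposite strand. Mrpl52 also holds the YY1 letters, 91 bases before the start.

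The share of promoters with each motif is given beside that of all tested protein-coding genes, as a description with no test. The NRF1 letters were in 13 of 68 member windows (19.1%) and in 11.5% of 8936 windows of all tested protein-coding genes. The ETS letters were in 24 (35.3%) against 20%, and the YY1 letters in 13 (19.1%) against 7.82%. A longer form of the YY1 letters, the one searched first, was in 5 (7.35%) against 1.85%. The E-box was in 5 (7.35%) against 10.5%. At least 1 of NRF1, ETS and YY1 was in 41 member windows (60.3%), where 34.5% of all had one, and no member window had overlapping matches to different motifs. The promoters of cytosolic ribosomal proteins held the ETS letters in 39.7%, the NRF1 letters in 6.35% and the YY1 letters in 14.3% (0% for the longer form). Members called higher held the NRF1 letters in 12 of 56 windows, and the other members in 1 of 12. For the ETS letters these counts were 21 of 56 and 3 of 12, and for the YY1 letters 11 of 56 and 2 of 12. For the E-box they were 5 of 56 and 0 of 12. RNA of the regulators themselves did not move in 1 direction: Nrf1 fell by 0.66 ± 0.19 on the log2 scale (edgeR adjusted p = 0.00651) and the ETS factor subunit Gabpa by 0.78 ± 0.14 (edgeR adjusted p = 0.00137). Myc rose by 1.41 ± 0.47 (edgeR adjusted p = 0.00623) and the coactivator Ppargc1b by 0.98 ± 0.37 (edgeR adjusted p = 0.0382), from 2.48 to 4.91 CPM, a call lost without any 1 of 6 of the mice. With the length trend removed Nrf1 had -0.25 and was not called, and with the principal transcript length Myc had 0.99 and was not called. The coactivator Ppargc1a did not pass the filter, and Yy1, Esrra and Pprc1 were not called.

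Large and small subunit genes rose side by side. Of the Mrpl genes 43 of 48 rose with a median log2 fold change of 0.85, and of the Mrps genes 21 of 28 tested with a median of 0.72. The groups did not overlap for 30 Mrpl and 14 Mrps genes. The summed level went from 1591 ± 245.6 to 2783 ± 550 CPM for the large subunit, a ratio of 1.75. It went from 768.7 ± 99.6 to 1242 ± 184 CPM for the small subunit, a ratio of 1.62. In each mouse the large subunit sum was between 1.99 and 2.41 times the small one: 2.02, 2.03, 2.09, 1.99 and 2.19 in saline and 2.27, 2.08, 2.21, 2.17 and 2.41 in LPS. The mean ratio was 2.06 ± 0.08 in saline and 2.23 ± 0.13 in LPS, and these ranges overlapped.

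**Figure D4:**
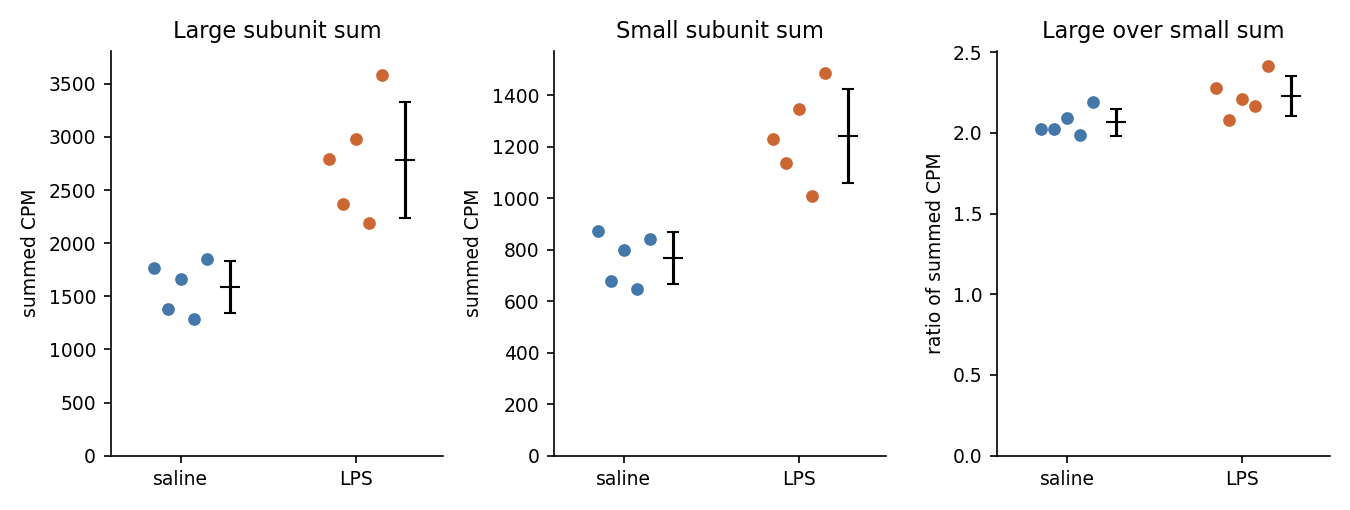
Summed CPM of the large and small subunit genes and their ratio in each mouse (points), with group mean ± SD beside them. Both sums separate LPS from saline, and the ratios of LPS replicates 2 and 4 (2.08 and 2.17) fall within the saline range of 1.99 to 2.19.

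From the deposited RPKM values the ratio was 2.13 ± 0.09 in saline and 2.39 ± 0.12 in LPS, where the highest saline mouse had 2.26 and the lowest LPS mouse 2.28. The difference between the subunits' medians, 0.13 as fitted, turned to -0.10 with the length trend removed and to -0.08 with the principal transcript length. The large subunit median was then 0.28 or 0.41, and the small subunit median 0.37 or 0.49. With Mrps30 and Mrps18a counted in the large subunit, where structures of the mammalian mitochondrial ribosome place them, and Mrps36 left out, 45 of 50 large and 19 of 26 small subunit genes were called higher with medians of 0.83 and 0.73.

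By evolutionary origin, most genes of each class rose. Of the 30 large-subunit genes with a bacterial counterpart 27 rose (median log2 fold change 0.87), and of the 21 specific to mitochondria, Ict1 included, 19 did (0.72). In the small subunit 11 of 15 with a bacterial counterpart (0.72) and 7 of 10 specific to mitochondria (0.72) rose. Removal of the length trend left these classes with 15, 7, 7 and 5 genes called higher, and 1 lower in each small-subunit class. Mrps18a and Mrps18b were counted as specific to mitochondria here, although both are related to the bacterial protein S18. Mrps28 was placed in no class, and of the mitochondrial ribosomal proteins that carry other symbols only Ict1 was counted. On the side of the large subunit where the new chain leaves, 7 of 8 genes rose, with Mrpl23 as the exception and a median of 0.61. Once the length trend was removed, 1 of these 8 was called higher (12.5%, where 20.5% of all genes were), with a median of 0.22. With the principal transcript length 4 of 8 were called higher (50%, where 22.3% of all genes were). Of 6 mitochondrial ribosomal proteins that carry other symbols 4 rose. They were Dap3, a GTP-binding small-subunit protein (0.99 ± 0.16, edgeR adjusted p = 0.000252), Aurkaip1 (0.94 ± 0.19, edgeR adjusted p = 0.000837), Chchd1 (0.79) and Ict1. Ict1, also named Mrpl58, is a large-subunit protein that releases stalled chains, and it rose from 31.3 ± 7.49 to 61.8 ± 12.5 CPM (log2 0.98 ± 0.20, edgeR adjusted p = 0.000701). Ptcd3 and Gadd45gip1 were not called, at -0.29 and 0.23.

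Of the 5 stalk proteins 4 rose, and 2 were called higher with the length trend removed. Mrpl12, Mrpl11, Mrpl53 and Mrpl54 rose, and Mrpl10, which anchors the stalk to the ribosome, was not called. Mrpl10 (chr11:97041582-97049213) measured 51.7, 55.5, 52.6, 52.6 and 63.8 CPM in saline and 62.3, 66.7, 72.1, 54.8 and 77.5 CPM in LPS. The groups overlapped through saline replicate 5 and LPS replicate 4, and the log2 fold change was 0.27 ± 0.10 (edgeR adjusted p = 0.0993). Without LPS replicate 4 it was 0.33 and called (edgeR adjusted p = 0.0388). Mrpl11 (chr19:4962152-4966995), at the base of the stalk, measured 53.9, 44.1, 50.5, 33.3 and 50.1 CPM in saline and 72.3, 54.7, 80.4, 64.8 and 97.9 CPM in LPS. It rose by 0.67 ± 0.19 on the log2 scale (edgeR adjusted p = 0.00613), with no overlap between groups, and by 0.72 with the length trend removed. After removal of the trend Mrpl12 had 0.86 and was called, while Mrpl53 had 0.08 and Mrpl54 0.37 and neither was called (edgeR adjusted p = 0.616 and 0.0644). The counts of Mrpl53 are uncertain, since 88.0% of its exon length is shared with other annotated genes.

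All 3 genes related to bacterial ribosomal protein S18 were called higher as fitted, and only Mrps18b with the length trend removed. Mrps18b (chr17:35910380-35916440) had the smallest adjusted p of all members. It measured 18.7, 12.95, 19.4, 15.6 and 20.2 CPM in saline and 47.0, 54.9, 47.3, 34.3 and 47.0 CPM in LPS, a log2 fold change of 1.41 ± 0.16 (edgeR adjusted p = 1.7e-05). The groups were far apart, and the log2 fold change was 1.0 with the length trend removed. An opposite-strand gene overlaps 30.5% of its exon length, and whether counting used strand is not known here. Mrps18a (chr17:46111004-46128908), whose protein sits in the large subunit, measured 84.5, 60.5, 72.0, 56.1 and 75.6 CPM in saline and 103.0, 85.9, 117.9, 87.4 and 125.5 CPM in LPS. The lowest LPS mouse was just above the highest saline mouse, and the rise was 0.58 ± 0.15 on the log2 scale (edgeR adjusted p = 0.0081). Without the length trend Mrps18a had -0.08 and was not called. Mrps18c (chr5:100798759-100804467), which takes the place of the bacterial protein in the small subunit, measured 35.9, 21, 25.0, 17.4 and 30.7 CPM in saline and 51.7, 24.0, 53.5, 31.9 and 61.5 CPM in LPS. LPS replicates 2 and 4 fell within the saline range, and the rise of 0.77 ± 0.32 (edgeR adjusted p = 0.0232) was lost without LPS replicate 3, LPS replicate 5, saline replicate 2 or saline replicate 4, with edgeR adjusted p between 0.0581 and 0.065. Mrps18c, with the length trend removed, had -0.10, and with the principal transcript length 0.02, neither called (edgeR adjusted p = 0.57 and 0.938). The ratio of Mrps18b to Mrps18a was 0.250 ± 0.030 in saline (0.214 to 0.279) and 0.453 ± 0.108 in LPS (0.375 to 0.639), and the groups did not overlap.

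Per length of gene, the family spanned a wide range of levels. The deposited RPKM table listed 76 members with a median of 17.6 RPKM in saline and 31.1 in LPS, where all listed genes had 5.24 and 5.20. In saline 9 members were under 5 RPKM, 43 between 5 and 30 and 24 above 30. The median was 21.6 RPKM for large and 14.0 RPKM for small subunit genes in saline, and 39.5 and 25.3 RPKM in LPS. The highest in saline were Mrps18a (80.1 RPKM in saline, 122 in LPS), Mrpl36 (79.7 and 147.1) and Mrpl18 (66.5 and 120.9), and the lowest was Mrpl23 (1.14 and 1.23). In LPS the highest was Mrpl33, at 152.9 RPKM. Mrpl36 and Mrpl18, both large-subunit proteins with bacterial counterparts, rose by 0.85 ± 0.23 and 0.83 ± 0.22 on the log2 scale (edgeR adjusted p = 0.00347 and 0.0036). Mrpl36 ran from 51.6 to 90.6 CPM in saline and from 104.4 to 178.8 CPM in LPS, with no overlap. Mrpl18 ran from 57.9 to 87.2 and from 82.5 to 164.5 CPM, where LPS replicate 4 lay within the saline range. Without the length trend Mrpl36 had 0.22 and Mrpl18 0.23, and neither was called.

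The 12 members that were not called were Mrpl3, Mrpl10, Mrpl23, Mrpl48, Mrpl50, Mrps6, Mrps11, Mrps15, Mrps24, Mrps26, Mrps33 and Mrps35. Mrps15 (chr4:126046928-126055536), a small-subunit protein with a bacterial counterpart, had the lowest log2 fold change. It measured 21.5, 21.5, 20.6, 20.4 and 19.5 CPM in saline and 13.02, 15.8, 25.2, 16.6 and 16.7 CPM in LPS. In 4 LPS mice it lay below every saline mouse and in LPS replicate 3 above, and the log2 fold change was -0.24 ± 0.16 (edgeR adjusted p = 0.265). With the length trend removed it was called lower, at -0.87 (edgeR adjusted p = 0.00403), and with the principal transcript length at -0.85 (edgeR adjusted p = 0.00299). Mrps35 (chr6:147042728-147070906), specific to mitochondria, measured 7.63, 6.01, 7.74, 7.35 and 4.41 CPM in saline and 4.26, 5.60, 7.21, 5.50 and 6.33 CPM in LPS. Its groups overlapped (log2 fold change -0.20 ± 0.19, edgeR adjusted p = 0.505). It was called lower with the length trend removed, at -0.67 (edgeR adjusted p = 0.0397), but had 0.10 with the principal transcript length.

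Mrpl3 (chr9:105053268-105077466), a core large-subunit protein near the catalytic centre, measured 11.1, 10.1, 9.999, 8.59 and 9.45 CPM in saline and 10.9, 11.96, 7.98, 10.7 and 13.5 CPM in LPS. The groups overlapped widely (log2 fold change 0.16 ± 0.14, edgeR adjusted p = 0.487). Mrpl50 (chr4:49512597-49521083), specific to mitochondria, measured 76.5, 77.2, 77.3, 62.6 and 77.6 CPM in saline and 93.4, 97.1, 109.1, 68.0 and 86.7 CPM in LPS. Only LPS replicate 4 lay within the saline range, the log2 fold change was 0.29 ± 0.13 (edgeR adjusted p = 0.103), and without that mouse it was 0.38 and called (edgeR adjusted p = 0.0237). Neighbouring genes touch some of these members: Mrps11 and Mrpl46 lie on opposite strands with overlapping exons, and had log2 fold changes of 0.34 (edgeR adjusted p = 0.147) and 0.69 (edgeR adjusted p = 0.00515). In all, 32 members share exon sequence with another annotated gene, 18 of them over more than 10% of their exon length. After Mrpl53 the largest shares were those of Mrps34 (77.8%) and Mrps25 (69.8%), whose rises of 0.83 and 0.68 on the log2 scale carry this uncertainty.

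Mrpl23 (chr7:142532467-142540747), a protein at the exit of the peptide tunnel, was hardly counted under its own name. It measured 1.18, 2.54, 1.21, 1.99 and 1.42 CPM in saline and 0.417, 2.15, 1.86, 2.40 and 2.03 CPM in LPS. The groups overlapped (log2 fold change 0.09 ± 0.45, edgeR adjusted p = 0.873). The row of its pseudogene Mrpl23-ps1 held 999 counts in saline and 1709 in LPS, where Mrpl23 held 115 and 121, and it rose from 14.3 ± 3.36 to 26.1 ± 10.02 CPM (log2 0.86 ± 0.29, edgeR adjusted p = 0.0125). Reads of near-identical copies can be assigned to either, so the value of Mrpl23 is uncertain, and the sum of both rows rose by 0.80 (edgeR adjusted p = 0.0109). The other pseudogene that passed the filter, Mrpl48-ps, had 0.34 (edgeR adjusted p = 0.200).

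For Mrps30 and Mrps36 the symbol and the known place of the protein differ. Mrps30 (chr13:118380110-118387252), found in the large subunit, measured 4.34, 3.05, 5.48, 3.30 and 5.33 CPM in saline and 4.17, 8.82, 6.28, 6.89 and 9.14 CPM in LPS. LPS replicate 1 lay within the saline range, and the rise of 0.72 ± 0.26 on the log2 scale (edgeR adjusted p = 0.0437) was lost without any 1 of 7 of the mice, with edgeR adjusted p of up to 0.106. Mrps36 (chr13:100735940-100744659) is now known as a part of the 2-oxoglutarate dehydrogenase complex of the citric acid cycle, and it did not pass the filter. It had 1, 1, 1, 2 and 3 counts in the saline libraries and 7, 8, 10, 4 and 8 counts in the LPS libraries. The LPS counts were all above the saline counts, at a depth where single reads matter, and with no filter edgeR gave an adjusted p of 0.0436.

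Other steps of mitochondrial gene expression are given by their counts, with no test of the difference from the ribosomal proteins. Of 26 genes for ribosome assembly and ribosomal RNA modification 6 rose (23.1%, near the 22.4% of all tested genes) and 1 fell. Removing the length trend gave 5 higher and 3 lower, and with the principal transcript length 3 higher and 5 lower. The ribosomal RNA methyltransferase Rnmtl1 (Mrm3) rose from 7.35 ± 1.24 to 17.8 ± 3.66 CPM (log2 1.27 ± 0.18, edgeR adjusted p = 0.000162), and the assembly GTPase Mtg1 rose by 0.56 ± 0.09 (edgeR adjusted p = 0.0029), or 0.24 and not called with the length trend removed. The RNA helicase Dhx30 fell from 105.7 ± 24.9 to 51.5 ± 7.49 CPM (log2 -1.04 ± 0.18, edgeR adjusted p = 0.000249). Of 15 translation factors 6 rose (40%, where 22.4% of all tested genes did) and 2 fell. With the length trend removed 2 were called higher (13.3%, where 20.5% of all genes were) and 1 lower. The principal transcript length gave 4 higher (26.7%, where 22.3% of all genes were) and 1 lower. The elongation factors Tsfm and Tufm rose by 0.82 ± 0.20 and 0.77 ± 0.17 on the log2 scale (edgeR adjusted p = 0.00413 and 0.00746), but neither was called with the length trend removed. The ribosome recycling factor Gfm2 fell from 157.2 ± 27.1 to 79.7 ± 16.9 CPM (log2 -0.98 ± 0.18, edgeR adjusted p = 0.000413). The messenger RNA stabilising protein Lrpprc had a log2 fold change of -0.44 ± 0.12 (edgeR adjusted p = 0.0238), a call lost without LPS replicate 1, LPS replicate 5 or saline replicate 4 and with the range of mouse numbers as a term. Lrpprc, with the length trend removed, had -0.14 and was not called (edgeR adjusted p = 0.407).

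Of 20 mitochondrial tRNA-charging enzymes 6 rose (30%, where 22.4% of all tested genes did) and none fell. With the length trend removed 6 were called higher (30%, where 20.5% of all genes were) and 1 lower. The smallest adjusted p was that of Tars2, at 89.2 ± 5.72 CPM in saline and 181.1 ± 20.5 CPM in LPS (log2 1.02 ± 0.08, edgeR adjusted p = 2.06e-05). Sars2 and Rars2 rose by 0.88 ± 0.13 and 0.74 ± 0.15. Of 10 genes for transcription and replication of mitochondrial DNA 5 rose (50%, where 22.4% of all tested genes did) and 2 fell. Among those that rose were Tefm (0.58 ± 0.16, not called with the length trend removed) and the polymerase Polg (0.99 ± 0.34). Those that fell were the nuclease Mgme1 (-0.54 ± 0.16) and the helicase Peo1 (Twnk, -0.52 ± 0.12). Peo1 shares exon sequence on the opposite strand with Mrpl43, over 33.4% of the exon length of Mrpl43, which rose by 0.73. The fall of Peo1 was not called without LPS replicate 3 (edgeR adjusted p = 0.0525) or with the principal transcript length (-0.31, edgeR adjusted p = 0.0857). Of these 10 genes, 3 were called higher (30%, where 20.5% of all genes were) and 3 lower with the length trend removed. Of 25 genes for protein import 15 rose (60%, where 22.4% of all tested genes did) and none fell. With the length trend removed 8 of 24 were called higher (33.3%, where 20.5% of all genes were) and none lower. The smallest adjusted p-values were those of small Tim proteins of the intermembrane space, Timm10 (1.36 ± 0.15, edgeR adjusted p = 1.74e-05), Timm10b (1.24 ± 0.21) and Timm9 (0.94 ± 0.10).

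The 2 large families that depend on or parallel the mitochondrial ribosome moved in the same direction as fitted. Of 84 tested cytosolic ribosomal protein genes 68 rose and none fell, with a median log2 fold change of 1.16. Rps18, Rpl14 and Rpl18 rose by 1.82 ± 0.27, 1.76 ± 0.25 and 1.52 ± 0.21. Summed over genes on the CPM scale, the mitochondrial family was 0.668 ± 0.044 of the cytosolic family in saline and 0.506 ± 0.009 in LPS. The groups did not overlap. The cytosolic genes were shorter (median implied length 765 bases, against 1357 for the members), and this ratio was not corrected for length. Some of them were hardly counted, such as Rpl35, Rpl24 and Rps16 at 0.588, 0.609 and 1.41 CPM in saline. Whether their reads were assigned to other rows was not tested. Of 78 nuclear oxidative phosphorylation subunits 63 rose with a median of 0.85, among them Atp5b (0.83 ± 0.11), Atp5g3 (1.39 ± 0.26) and Cox6a2 (2.5 ± 0.47). Sdha and Ndufs1 fell by 0.41 ± 0.11 and 0.37 ± 0.14 (edgeR adjusted p = 0.0232 and 0.0492). The call of Sdha was lost without LPS replicate 5, saline replicate 2 or saline replicate 3, and that of Ndufs1 without any 1 of 8 mice. With the length trend removed, 43 of 84 cytosolic ribosomal protein genes were called higher (51.2%) and 0 lower. Of the 78 oxidative phosphorylation genes 19 were then called higher (24.4%, near the 20.5% of all genes) and 3 lower. With the principal transcript length 28 of the 78 were called higher (35.9%, where 22.3% of all genes were) and 4 lower.

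**Figure D5:**
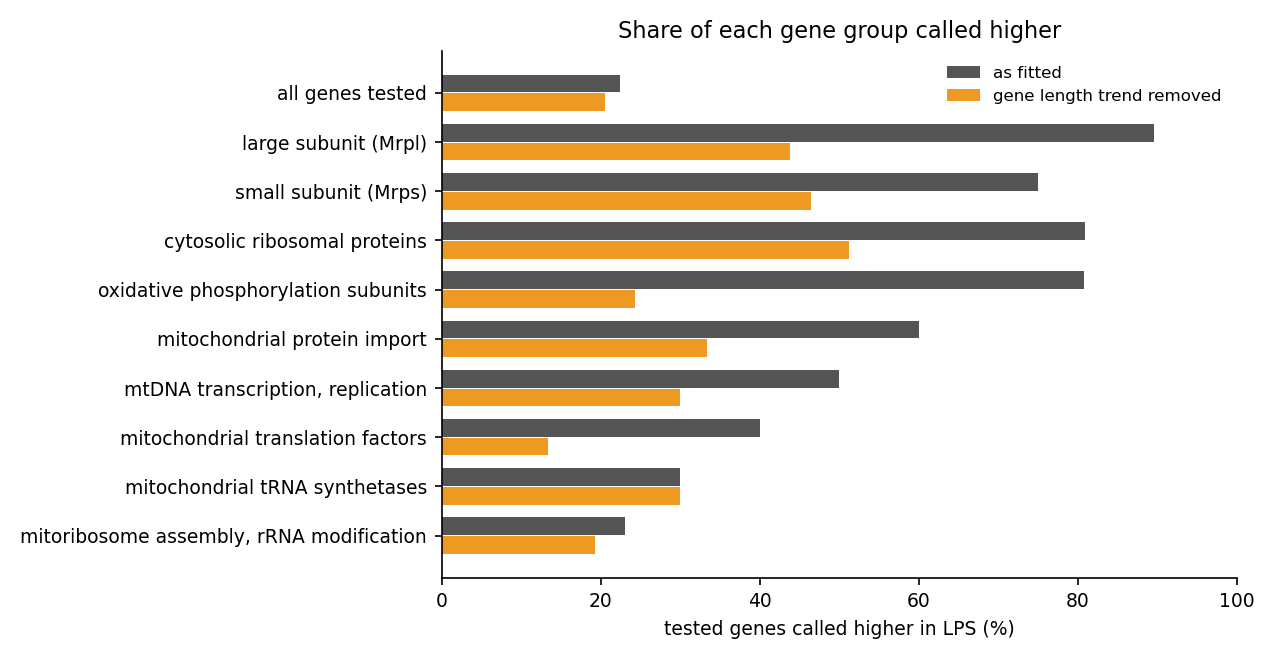
Percent of the tested genes of each group called higher in LPS, as fitted (grey) and with the gene length trend removed (orange), with all tested genes at the top (22.4% and 20.5%). The large and small subunit bars reach 89.6% and 75.0% as fitted and 43.8% and 46.4% with the trend removed.

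The tested genes outside the family that followed the members' mean log2 CPM most closely over the 10 libraries were Rplp1, a cytosolic ribosomal stalk protein, Gm9794, a pseudogene, and Chmp2a, a membrane-remodelling protein. Each had a Pearson r of 0.992 over 10 libraries that share group and library effects, which is given as a description.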

How the data were processed

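Raw counts per gene and, in separate tables, RPKM values were deposited by the authors. Per the submitters' processing notes, featureCounts and the builds GRCm38 and mm10 were used. The aligner, the annotation, the use of strand and the way the deposited RPKM values were normalised are not known from these sources. Libraries (Ovation kit) were made from 6 ng of product amplified by a SMARTer kit out of 5 ng RNA per mouse, per the labels' protocols. Amplified reads carry no molecular identifiers there, so the number of counts overstates the number of molecules. The last line of the count table, 1 row without a gene name, was left out, and 15 gene names that had become dates were renamed by gene ID. Coordinates came from RefSeq GRCm38.p6 and exon overlaps from GENCODE M21.

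The test was edgeR's (version 4.0.16, R 4.3.3) on the counts (TMM factors, filterByExpr, quasi-likelihood F test, Benjamini-Hochberg adjustment at 0.05 over all tested genes, no covariate). CPM values use TMM-scaled library sizes. Standard errors come from log2 CPM with a prior count of 2. Gene length was implied by the ratio of count to deposited RPKM, and its trend was removed from each library as an offset with a loess span of 0.3. The tests were checked on simulated counts.

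Alternatives were RLE, upper quartile and library size scaling, and no filter or a filter of 1 CPM in 5 libraries. Other tests were DESeq2 1.42.0 and limma-voom (limma 3.58.1). Limma was also run on log2(RPKM + 1) with and without a minimum mean RPKM of 1, and on log2(RPKM + 0.1) with it. Further ones were the range of mouse numbers as a term, protein-coding genes only, length trend removal, another subunit assignment and each mouse left out. Summing Mrpl23 with its pseudogene and the principal transcript length were added after seeing the data. The members, gene lists and motifs were chosen with earlier results of these data known. Genes named with values are the 6 largest and 6 smallest changes, the 3 smallest adjusted p-values, the 3 highest RPKM levels, the S18 paralogs, Mrps30, Mrps36, Mrpl10, Mrpl11 and Ict1, and of each other list the 3 called genes with the smallest adjusted p and up to 3 in the minority direction. Other genes are named where a count of 5 or fewer, exon overlap or a printed promoter calls for it, after their values were seen.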

Additional observations from a re-analysis of the deposited data

Results flagged for a closer look

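In 48 groups of 5 mice (the named members and the subunit sums, in saline and in LPS) the gap between the most extreme mouse and the next was compared with Dixon's critical value of 0.71. The gap exceeded it in 2 groups, where chance alone gives about 1 in 20.

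Mrpl23 in LPS had a gap of 0.726 of the group's range. LPS replicate 1 was at 0.417 CPM, or 5 counts, and the next mouse was at 1.86 CPM. Mrpl50 in saline had a gap of 0.928. Saline replicate 4 was at 62.6 CPM and the next mouse at 76.5 CPM, and this replicate also gave the lowest saline value of 38 members.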

How the results depend on the processing

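Across the settings other than removal of the length trend and single mice, 58 to 65 members were called higher and none lower, and with the range of mouse numbers as a term 59 were. No paired analysis was possible because no mouse number occurs in both groups. Leaving out each mouse gave 51 to 65 members higher (36 to 45 large, 15 to 21 small), none lower, medians of 0.66 to 0.84 (0.73 to 0.92 large, 0.62 to 0.79 small) and a difference between subunit medians of 0.11 to 0.18. Of the 64 higher calls 49 held in all 10 of these fits and 29 in all 25 alternatives.

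Removing the length trend gave 34 members higher and 2 lower with a median of 0.31. The large subunit had 21 higher (median 0.28), the small subunit 13 higher and 2 lower (0.37), and the difference of medians was -0.10. With the principal transcript length there were 41 members higher and 1 lower (median 0.41), 27 large-subunit genes higher (0.41), 1 small-subunit gene lower and a difference of -0.08. The cause was not tested.

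Over all 76 tested members 74 had a log2 fold change above 0 as fitted and 62 with the length trend removed. Signs turned in these named members. With the length trend removed, the log2 fold change was -0.35 for Mrpl23, -0.25 for Mrpl3, -0.09 for Mrpl10, -0.08 for Mrps18a and -0.10 for Mrps18c. With the principal transcript length it was -0.63 for Mrpl23, -0.06 for Mrpl10, -0.05 for Mrps18a and 0.10 for Mrps35. Mrpl23 had -0.01 with log2(RPKM + 0.1), -0.04 without LPS replicate 4 and -0.02 without saline replicate 1, and up to 0.35 without LPS replicate 1. None of these values was called. Without the length trend the sign also turned for Mrps21 (-0.13) and Mrpl14 (-0.01), called higher as fitted, and for Mrps33, Mrps6, Mrps11, Mrps24 and Mrpl48, which were not. Few reads limit Mrpl23, Mrps36, Mrps24 and Mrps26, and the members' coefficient of variation between mice had a median of 20.8% in saline and 22.7% in LPS.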
